A study of Mus musculus with 8 samples.

Results

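Rbfox proteins are RNA-binding splicing factors that bind the element (U)GCAUG in introns next to alternative exons. Where the element lies relative to an exon decides, in most cases, whether that exon is kept or left out. Neurons carry many such exons, often short ones that keep the reading frame, in genes for transcription factors, ankyrins, motor proteins and the actin cytoskeleton. An exon that is skipped or included without loss of the reading frame changes the protein and need not change how much RNA the gene yields. The 10 genes described here, Mef2a, Mef2c, Mef2d, Enah, Ndel1, Picalm, Camta1, Ank2, Ank3 and Kif21a, are known for Rbfox-regulated exons and were chosen by symbol. All 10 were found among the 17500 genes of the deposited table, and all 10 passed the filter on low counts that left 16797 genes for testing. They lie on 8 chromosomes, and their gene spans in the GENCODE M21 annotation (GRCm38) run from 29715 bases for Mef2d (chr3:88142372-88172086) to 944555 bases for Camta1 (chr4:150917322-151861876). Ndel1 lies at chr11:68821434-68871858 and Kif21a at chr15:90933276-91049948, and exon positions of the remaining members accompany their sequences.

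Whole-retina poly(A) RNA of 8 C57BL/6J mice, all 6 months of age, was sequenced with 1 library per mouse, 4 from control and 4 from Rbfox2-/- animals (labelled "Rbfox2 KD"). By the study's methods, Rbfox2-/- animals were Rbfox2 fl/fl mice that carried a transgene for a Cre recombinase that tamoxifen activates, and controls were heterozygous Rbfox2 fl/+ mice of the same age. All 8 samples are labelled with the same 4 months of tamoxifen, and the methods mention a corn oil vehicle beside tamoxifen without saying which of them the controls received, or whether controls carried Cre. The Cre is not limited to 1 cell type. The study describes robust reporter expression from it in ganglion cells, amacrine cells and some sparse, probably horizontal cells. In its staining, Rbfox2 protein was gone from horizontal cells and remained in very few cells of the ganglion cell layer. The loss was more modest in amacrine cells of the inner nuclear layer. The table holds counts per gene, so the use of single exons was not measured. In a whole retina, fewer cells of a type and less RNA per cell cannot be told apart.

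The deposited counts summed to between 160630226 and 211283591 per mouse, which gave each of the 10 genes at least 9681 counts in every library. Rbfox2 itself was at 144 to 157 CPM (counts scaled to a common library total) in controls and at 53.9 to 59.4 CPM in Rbfox2-/- retinas, a log2 fold change of -1.41 ± 0.046 (SE; edgeR quasi-likelihood test, adjusted p = 5.51e-07). This count covers the whole gene and not only the floxed exons. Its paralogs Rbfox1 and Rbfox3 had log2 fold changes of -0.037 and 0.038 (edgeR adjusted p = 0.847 and 0.875). Rbfox2-/- mice M901 and M902 stood apart from the other 6 on the first principal component, which held 40.5% of the variance, and had 277506 and 275967 counts of Xist, the RNA that silences an X chromosome in female cells, where each of the others had 312 to 426. The tests were therefore also run without these 2 libraries, and that value is given where it changed a call or a sign. The retinal markers fitted the labelled tissue, with summed rod markers at 54100 to 61300 CPM and lens and skeletal muscle markers at no more than 2.16 and 4.20 CPM in any mouse.

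To show what is annotated as alternative in these genes, the sequences of selected cassette exons were read from the GENCODE M21 transcripts (GRCm38, the build also called mm10). A cassette exon was counted where 1 coding transcript holds it between the same neighbours that another coding transcript joins directly. The following 7 exons are shown because each lies in a different member and because 4 of them form paralog pairs. Each is printed 5′ to 3′ in the sense of the gene.
Mef2a, chr7:67244521-67244544, minus strand: tcGgaggaAgAggaATtgGAgttg
Mef2c, chr13:83654598-83654621, plus strand: tcTgaggaTgTggaTCtgCTgttg
Mef2d, chr3:88161781-88161801, plus strand: actgaggaccatttagatctg
Ank2, chr3:127052226-127052249, minus strand: atgAtggtgaaCagGAcaacAgag
Ank3, chr10:69823078-69823101, plus strand: atgGtggtgaaTagAGcaacTgag
Picalm, chr7:90194273-90194296, plus strand: aatgGCATGcattttccacaatac
Enah, chr1:181911597-181911659, minus strand: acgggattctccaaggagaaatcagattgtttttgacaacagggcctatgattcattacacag

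Capitals mark the bases that differ between Mef2a and Mef2c and between Ank2 and Ank3, and in Picalm they mark GCATG, the DNA letters of the Rbfox element. The Mef2a and Mef2c exons matched at 17 of 24 bases and the Ank2 and Ank3 exons at 19 of 24. The Mef2d exon is 21 bases long and the Enah exon 63. The Picalm exon shown was the only 1 of 76 annotated cassette exons of 24 bases in coding genes that held GCATG on the sense strand (1.32%). The other cassette exon of Picalm, of 150 bases, held no GCATG and is not shown, nor are those of Camta1 and Kif21a. The search covered only exon bases on the sense strand, so a match is a description of the letters and the introns, where Rbfox proteins mainly bind, were not read.

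By this annotation 9 of the 10 genes held 45 cassette exons, with 11 in Ank3, 10 in Ank2, 7 each in Enah and Kif21a, 4 in Mef2c, 2 each in Picalm and Camta1, and 1 each in Mef2a and Mef2d. Ndel1, whose product positions the dynein motor, had none by this definition. Exons that overlap but differ at a splice site were counted separately, as in Enah, Mef2c and Ank3, and likewise in all coding genes. The reading frame was kept by 43 of the 45 (95.6%), against 78.5% of the 6232 cassette exons of all coding genes. Very short exons, of 27 bases or fewer, made up 14 of the 45 (31.1%), with at least 1 in each of the 9 genes, against 487 of the 6232 (7.81%). GCATG stood in 4 of the 45 (8.89%) and in 9.95% of all. Of the 4, 2 were overlapping Ank3 exons of 2550 and 7674 bases and 1 was an Ank2 exon of 6198 bases. The 10 genes were chosen as known for Rbfox-regulated exons, which are often short and keep the reading frame. Higher shares of such exons can follow from that choice and are no result about these genes. These shares describe an annotation and not the retina, and Ank3 and Ank2, with 47 and 27 annotated transcripts, hold more of the exons than any other member.

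**Figure D1:**
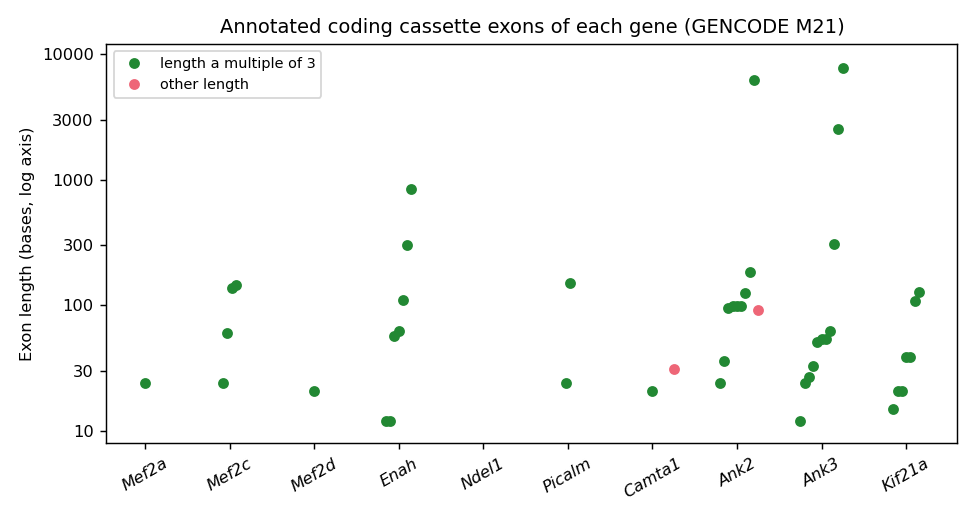
Annotated coding cassette exons of the 10 genes in GENCODE M21, with 1 point per exon at its length in bases (logarithmic axis), green where the length is a multiple of 3 and red where it is not. Of the 45 points 43 are green, each of the 9 genes with a point has one of 27 bases or fewer, and Ndel1 has none.

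At gene level none of the 10 genes differed between Rbfox2-/- and control retinas by more than the spread between mice. At an adjusted p under 0.05 the edgeR quasi-likelihood test called 0 of 10, where it called 11 of all 16797 genes (0.0655%). At an unadjusted p under 0.05 it also called 0 of 10, where it called 13.3% of all genes (6.42% as higher and 6.87% as lower in Rbfox2-/- retinas). In 0 of 10 did every Rbfox2-/- mouse lie outside the control range, where 7.03% of all genes were separated in this way (3.64% higher and 3.39% lower). With 10 genes and such backgrounds a count of 0 is close to what the backgrounds alone give, so it is no result about these genes as a group. Leaving out 1 mouse moved the count without overlap to 2 at most, with Mef2d and Picalm separated without M833 (16.1% of all genes), Camta1 and Kif21a without M896 (8.49%), Kif21a without M893 (10.8%) and Ndel1 without M909 (16.1%). The estimates were positive for 7 genes and negative for 3, with a median log2 fold change of 0.0145 beside 0.00162 over all genes. The 95% confidence intervals were set 1 gene at a time, and over the 10 genes they reached no lower than -9.03% and no higher than 14.5%. They bound the change of each gene in the whole retina. The study found Rbfox2 only in ganglion, amacrine and horizontal cells, and the change within those cells was not measured.

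**Figure D2:**
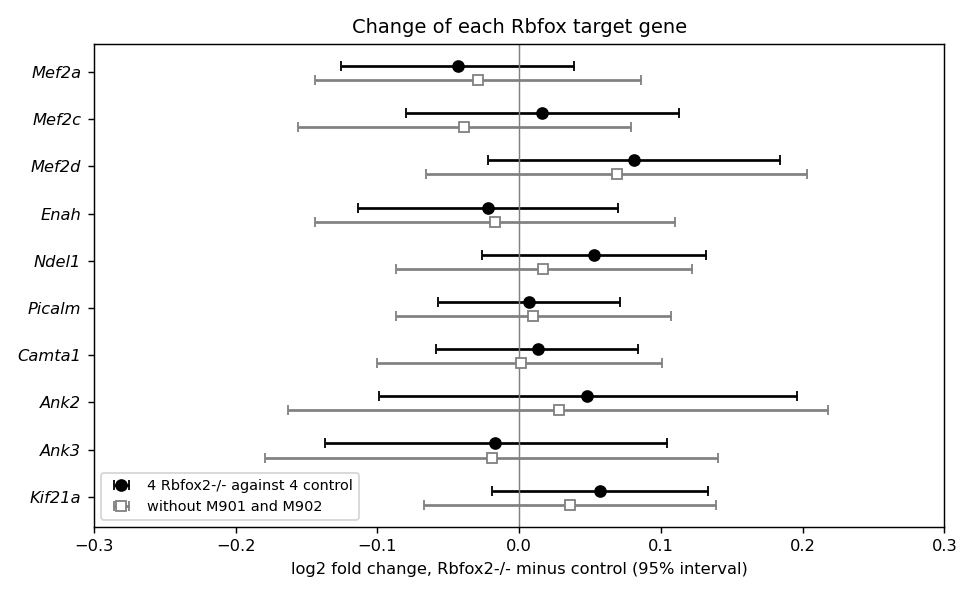
Log2 fold change of each gene (Rbfox2-/- minus control, horizontal axis) with its 95% confidence interval (bars) from the edgeR fit, with 4 mice per group (black circles) and without M901 and M902 (open grey squares). All 10 intervals include 0 in both fits, and the estimates of the fit with 4 mice per group run from -0.043 for Mef2a to 0.081 for Mef2d.

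The MEF2 genes encode MADS-box transcription factors that drive activity-dependent genes in neurons and muscle, and their transcripts carry a short alternative exon that strengthens activation, of the kind printed above. Mef2d, the most abundant of them in the retina, was at 361.4, 339.0, 343.2 and 320.4 CPM in controls M833, M894, M896 and M898. In Rbfox2-/- mice M893, M901, M902 and M909 it was at 373.1, 352.9, 373.3 and 343.4 CPM. M893 and M902 lay above every control and the other two lay inside the control range, so the groups overlapped. The log2 fold change of 0.081 ± 0.046 (SE) was the largest of the 10, with a 95% interval of -1.54% to 13.6% (edgeR adjusted p = 0.481, exact permutation p = 0.143). Without control M833 or without Rbfox2-/- mouse M909 the unadjusted edgeR p of Mef2d was under 0.05, as it then was for 17.6% and 17.8% of all genes.

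Mef2a was at 139.3, 137.3, 139.3 and 131.0 CPM in controls and at 129.0, 134.4, 127.9 and 139.4 CPM in Rbfox2-/- mice. M893 and M902 lay just under the lowest control, while M909 lay level with the highest. Its log2 fold change was -0.043 ± 0.037 (SE; edgeR adjusted p = 0.646). Mef2c, the MEF2 member known from heart and cortical development, was at 195.1, 188.5, 185.1 and 184.9 CPM in controls and at 175.2, 196.6, 198.2 and 192.2 CPM in Rbfox2-/- mice. One Rbfox2-/- mouse, M893, was below every control and M901 and M902 were above every control. The log2 fold change of Mef2c was 0.016 ± 0.043 (SE; edgeR adjusted p = 0.905), and it was -0.039 without M901 and M902, with neither value separable from 0.

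The share of each factor in the summed MEF2 FPKM (deposited fragment counts scaled to transcript length and library total) describes the make-up of the family per length. Mef2d made up 71.4% ± 0.543 (SD, n = 4) in controls and 72.8% ± 1.52 in Rbfox2-/- retinas. Mef2c made up 15.1% ± 0.388 and 14.7% ± 0.891, and Mef2a 12.8% ± 0.261 in controls and between 11.2% and 12.9% in Rbfox2-/- retinas. Mef2b, best known from B cells, was at 0.701% ± 0.125 and 0.531% ± 0.144. For each of the 4 genes the shares of the groups overlapped, and Mef2d led in every mouse, from 70.8% to 74.7%.

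Kif21a, Enah and Ndel1 act on the cytoskeleton. Kif21a encodes a kinesin that restrains microtubule growth at the cell cortex. It was at 288.8, 281.6, 294.3 and 276.4 CPM in controls and at 290.6, 305.1, 295.7 and 295.4 CPM in Rbfox2-/- mice. M901, M902 and M909 lay above every control and M893 lay below control M896. The exact permutation test over the 70 groupings gave a two-sided p of 0.0571, the lowest of the 10 genes, where the smallest that 4 against 4 mice allow is 0.0286. The log2 fold change of Kif21a was 0.057 ± 0.034 (SE; edgeR adjusted p = 0.505).

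Enah, which elongates actin filaments at the leading edge of cells, was at 170.5, 172.1, 171.9 and 158.2 CPM in controls and at 159.4, 169.6, 159.9 and 173.5 CPM in Rbfox2-/- mice. The single low control, M898, lay below every Rbfox2-/- mouse, and the ranges overlapped almost whole. Its log2 fold change was -0.022 ± 0.041 (SE; edgeR adjusted p = 0.859). Ndel1 was the lowest of the 10 genes in CPM, at 58.8, 56.6, 57.8 and 59.6 in controls and at 59.7, 62.5, 61.0 and 58.3 in Rbfox2-/- mice. M893, M901 and M902 lay above the highest control, by little, and M909 lay inside the control range. The log2 fold change of Ndel1 was 0.053 ± 0.035 (SE; edgeR adjusted p = 0.549).

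The giant ankyrins tether ion channels and adhesion molecules to the spectrin skeleton, Ank3 at the axon initial segment and nodes and Ank2 along the axon. Ank2 varied most between mice, at 513.7, 485.8, 475.2 and 454.0 CPM in controls and at 441.8, 525.5, 484.1 and 542.9 CPM in Rbfox2-/- mice. Both the lowest and the highest of the 8 mice were Rbfox2-/-, M893 and M909. Its log2 fold change was 0.048 ± 0.066 (SE), with the widest interval of the 10, -6.63% to 14.5% (edgeR adjusted p = 0.794). Ank3 was at 274.0, 278.9, 271.3 and 251.5 CPM in controls and at 245.6, 275.4, 256.4 and 286.0 CPM in Rbfox2-/- mice. Here too M893 was the lowest and M909 the highest of the 8 mice. The log2 fold change of Ank3 was -0.017 ± 0.054 (SE; edgeR adjusted p = 0.927).

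Picalm, a clathrin assembly protein of endocytosis, was the steadiest gene. It was at 137.9, 132.6, 133.2 and 129.8 CPM in controls and at 134.3, 133.7, 133.4 and 134.7 CPM in Rbfox2-/- mice, so that all 4 Rbfox2-/- mice lay inside the control range. Its fitted variation between mice was lower than that of all but 0.161% of the genes tested. The log2 fold change was 0.007 ± 0.029 (SE; edgeR adjusted p = 0.941). Camta1, a calmodulin-binding transcription activator of the nervous system, was at 268.9, 268.1, 277.0 and 260.6 CPM in controls and at 269.1, 275.8, 269.6 and 269.5 CPM in Rbfox2-/- mice. All 4 Rbfox2-/- mice again lay inside the control range, and the log2 fold change was 0.013 ± 0.032 (SE; edgeR adjusted p = 0.901).

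**Figure D3:**
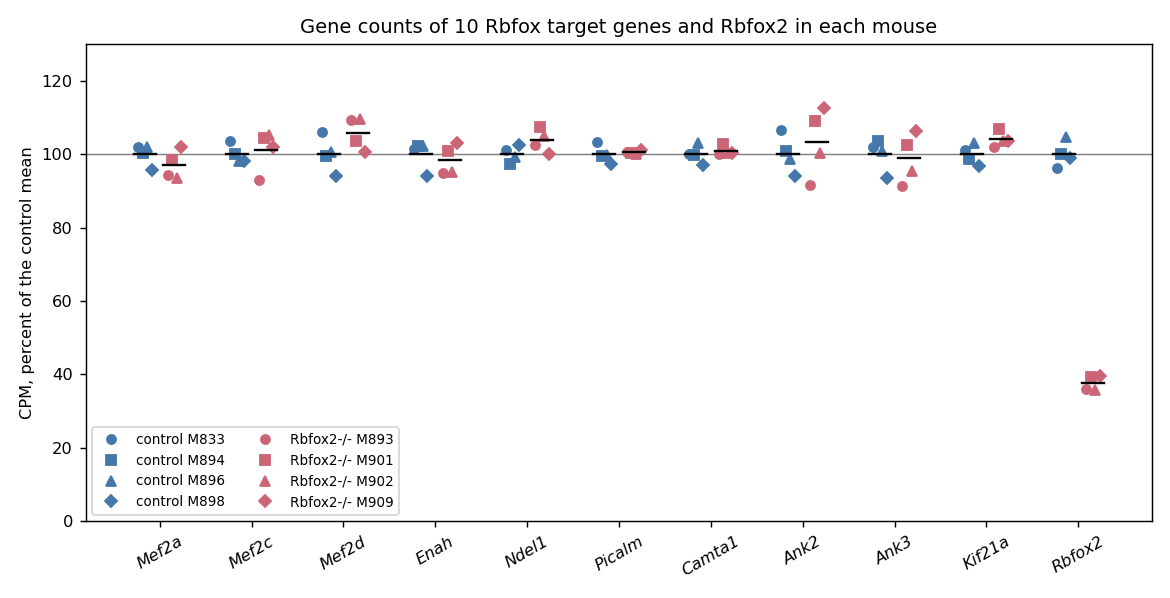
CPM of the 10 genes and Rbfox2 in each of the 8 mice, as a percent of the control mean of that gene (vertical axis from 0), with 1 marker shape per mouse, controls in blue, Rbfox2-/- in red and short black lines at the group means. The groups overlap for all 10 genes, while the 4 Rbfox2-/- mice lie far below every control for Rbfox2.

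Much of the spread was shared by genes within a mouse. Control M898 was the lowest control for 9 of the 10 genes, and M833 the highest for 5. Among Rbfox2-/- mice, M893 was the lowest for 6 genes and M909 the highest for 5. Summed over the 10 genes, controls ran from 2226.3 CPM in M898 to 2408.3 in M833 and Rbfox2-/- mice from 2277.9 in M893 to 2435.4 in M909. M901 and M909 lay above M893 and M902 for Mef2a, Enah, Ank2 and Ank3, whose exons together span 14.7, 21.5, 35.0 and 34.8 kb, and below them for Mef2d, at 5.99 kb. The other 5 genes were mixed, with Mef2c and Picalm at 15.7 kb, Camta1 at 14.6, Kif21a at 6.48 and Ndel1 at 3.25 kb. The part of exon length in this order was not tested. The libraries of M901 and M909 were the deeper ones, at 195100610 and 193210621 counts against 174629057 and 160630226, and the part of depth in this pattern was not tested. The 10 genes are therefore not 10 independent observations of the groups.

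Across the range of control levels that the 10 genes span, 58.2 to 482 CPM, 3821 genes were tested, and the median size of the log2 fold change was 0.0415 there, against 0.0326 for the 10 genes and 0.072 over all genes tested. The fitted coefficient of variation between mice had a median of 0.0524 over the 10 genes and of 0.0556 over those 3821, with 7 of the 10 genes below it. In the same range of levels 12.5% of genes had an unadjusted p under 0.05 and 6.07% were separated between the groups. The 10 genes were thus measured with about the precision usual at their level, and their fitted variation had a median percentile of 8.39 among all genes tested.

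**Figure D4:**
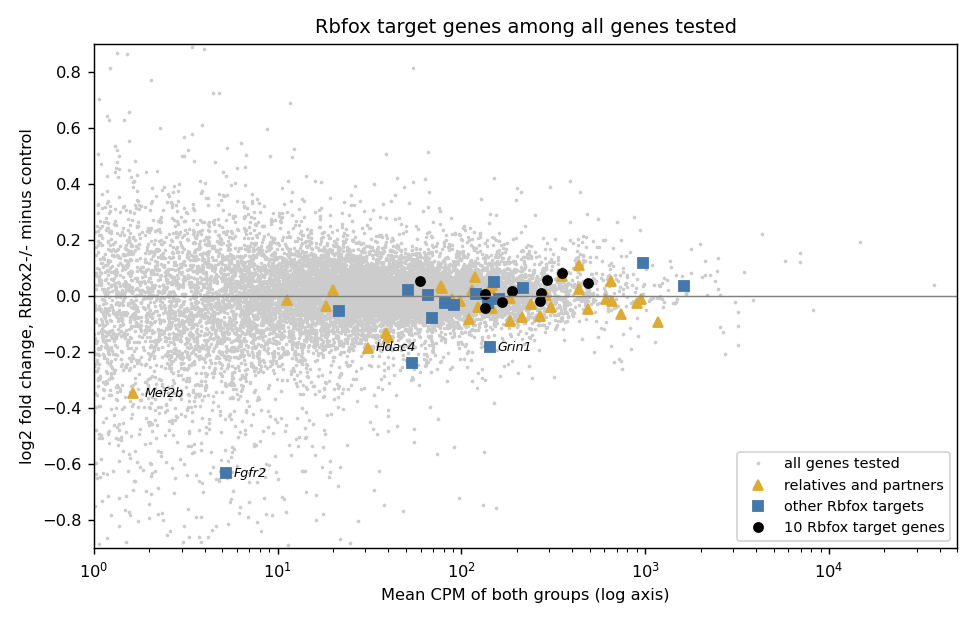
Log2 fold change (Rbfox2-/- minus control) against the mean CPM of both groups (logarithmic axis) for the genes tested (grey), with the 10 genes (black circles), the other Rbfox targets (blue squares) and the relatives and partners (yellow triangles). The 10 genes lie between -0.043 and 0.081, the 3041 genes under 1 CPM are not drawn and 93 genes lie outside the vertical axis.

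Compared per length in controls, Mef2d was the highest of the 10 at 139 ± 5.16 FPKM (SD, n = 4), followed by Ank2 at 84.0 ± 3.27 and Kif21a at 45.5 ± 1.12. Picalm at 33.7, Camta1 at 32.0, Mef2c at 29.5, Ank3 at 27.1, Mef2a at 24.9 and Ndel1 at 24.7 FPKM followed closely. Enah was the lowest at 14.6 ± 0.537 FPKM. Mef2a and Ndel1 overlapped in the controls and cannot be ordered, and over all 8 mice Picalm with Camta1, Mef2c with Ank3, and Ank3 with Mef2a overlapped as well. In Rbfox2-/- retinas Mef2d was at 146 ± 6.67 FPKM and Ank2 at 85.9 ± 7.30.

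The order depended on the length used. The length behind the deposited FPKM of Ank2 was 5770 bases, less than 1 of its annotated cassette exons of 6198 bases, and its exons together span 35004 bases. Counts per kilobase of all annotated exons put Ank2 in the fifth place at 13.8 CPM per kb, left Mef2d first at 57.0 and Kif21a second at 44.1, and put Ank3 last at 7.72. Levels per length are compared between genes only on these 2 scales. CPM alone takes no account of length, and Ndel1, the lowest in CPM, was at 17.9 CPM per kb, above Ank3. The difference between groups is within a gene and does not depend on which of these lengths is chosen. A difference in exon use between the groups could still alter the counts of a gene, and exon use was not measured.

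**Figure D5:**
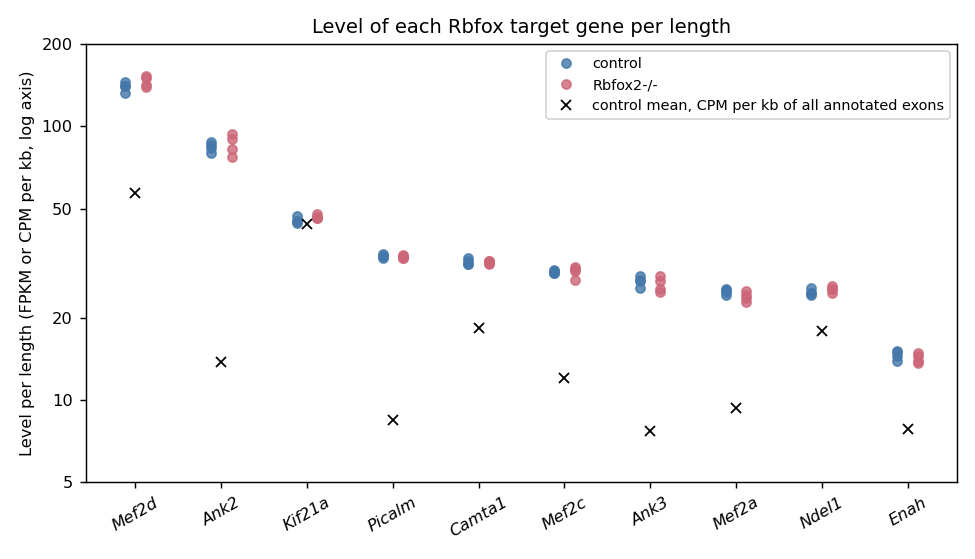
Level per length of each gene (logarithmic axis), with the deposited FPKM of each control mouse in blue and each Rbfox2-/- mouse in red, and crosses for the control mean in CPM per kilobase of all annotated exons. Mef2d is first on both scales, and Ank2 is second in FPKM and the fifth per kilobase of exons.

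Reads of overlapping genes can enter these counts, since it is not stated whether counting used strand. Exons of 1700113A16Rik on the other strand share 531 bases with Mef2d, 8.87% of its exon length, those of Lysmd4 share 302 bases with Mef2a (2.06%) and those of Gm16958 share 182 bases with Ank2 (0.52%). The other 7 members share no exon bases with another gene of that annotation.

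Another 16 genes known for Rbfox-regulated exons were listed beside the 10. The unadjusted p of the edgeR test was under 0.05 for 3 of them (18.8%, against 13.3% of all genes), 1 higher and 2 lower, and the adjusted p was under 0.05 for none. Grin1, the obligatory subunit of NMDA receptors, was at 140.9, 158.8, 155.8 and 149.8 CPM in controls and at 138.7, 138.9, 128.6 and 126.9 CPM in Rbfox2-/- mice. All 4 Rbfox2-/- mice lay below every control, and the log2 fold change was -0.183 ± 0.047 (SE; edgeR adjusted p = 0.192, exact permutation p = 0.0286). Fn1, which encodes fibronectin, was at 53.8 to 61.7 CPM in controls and at 41.5 to 60.0 CPM in Rbfox2-/- mice, with overlap (edgeR adjusted p = 0.355). Epb4.1, the older symbol under which the table lists the gene for the membrane skeleton protein 4.1R, was at no more than 969.7 CPM in any control and at 981.7 to 1074 CPM in Rbfox2-/- mice, without overlap (edgeR adjusted p = 0.313). Fgfr2, singled out after its values were seen for the lowest estimate of the 16, was at 3.46 to 9.81 CPM in controls and at 1.85 to 6.53 CPM in Rbfox2-/- mice, with overlap. The log2 fold change of Fgfr2 was -0.633 (edgeR adjusted p = 0.591), and it was -0.034 without M901 and M902. Those 2 mice were at 1.85 and 2.07 CPM, below the other Rbfox2-/- mice at 5.86 and 6.53 CPM. Without M901 and M902, Grin1 alone of the 3 kept an unadjusted p under 0.05, as 6.01% of all genes then had.

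Of 36 paralogs and known partners of the 10 genes, the unadjusted p was under 0.05 for 4 (11.1%, against 13.3% of all genes), all 4 lower in Rbfox2-/- retinas, and the adjusted p for none. Hdac4, a deacetylase that binds and represses MEF2 factors, was at 32.1, 33.0, 34.2 and 32.1 CPM in controls and at 28.0, 27.9, 28.6 and 31.1 CPM in Rbfox2-/- mice. The groups did not overlap, and the log2 fold change was -0.185 ± 0.0465 (SE; edgeR adjusted p = 0.184, exact permutation p = 0.0286). Zyx, which recruits Enah to focal adhesions, was at 38.3 to 43.2 and 35.5 to 38.8 CPM in controls and Rbfox2-/- mice (edgeR adjusted p = 0.276). Pfn2, the neuronal profilin that binds actin and Enah, was at 181.8 to 202.0 and 173.6 to 180.5 CPM without overlap (edgeR adjusted p = 0.363). Ap2a1, a subunit of the endocytic adaptor AP-2, was at 210.8 to 222.7 and 202.9 to 214.0 CPM (edgeR adjusted p = 0.375). Without M901 and M902, Hdac4 alone of these 4 had an unadjusted p under 0.05, as 6.01% of all genes then had.

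None of the direct paralogs of the 10 genes had an unadjusted p under 0.05. Their log2 fold changes were small except that of Mef2b. They were -0.036 for Vasp and -0.041 for Evl, the relatives of Enah, 0.022 for Nde1 and 0.025 for Snap91, the relative of Picalm. Camta2 was at -0.044, Ank1 at 0.069 and Kif21b at -0.048. Mef2b, at 1.44 CPM in Rbfox2-/- retinas and 1.83 CPM in controls, was at -0.346 with an SE of 0.208, the widest of these paralogs.

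The make-up of the libraries was compared with the same 8 mice. Summed horizontal cell markers were at 99.6 to 106 CPM in controls and at 81.4 to 85.8 CPM in Rbfox2-/- retinas. Most of this sum was Calb1, the calcium buffer calbindin, at 56.2 to 77.6 CPM over the 8 mice. Calb1 was lower in Rbfox2-/- retinas (log2 fold change -0.398, edgeR adjusted p = 0.00341). The study names calbindin as a common marker of amacrine as well as horizontal cells. Its staining for calbindin, which shows protein and not RNA, appeared unaffected in Rbfox2-/- retinas. Onecut1 and Onecut2 had log2 fold changes of -0.133 and -0.2 and Lhx1 of 0.183, with no adjusted p under 0.05 (edgeR). Summed cone markers were at 734 to 742 CPM in controls and at no less than 780 CPM in any Rbfox2-/- retina, without overlap, though its genes were not all higher, with log2 fold changes of 0.265 for Opn1sw and -0.226 for Opn1mw. The ranges of the other lists overlapped between the groups, at 54100 to 57900 and 55800 to 61300 CPM for rods, 907 to 999 and 886 to 945 for bipolar cells, 976 to 1060 and 967 to 1020 for amacrine cells, and 546 to 932 and 705 to 950 for ganglion cells. Müller glia were at 4710 to 5270 and 4260 to 4740 CPM, astrocytes at 8.06 to 11.9 and 8.89 to 12.1, microglia at 24.3 to 27.4 and 21.8 to 26.2, and endothelium and pericytes at 43.5 to 53.9 and 36.7 to 48.9. Pigment and ciliary epithelium were at 48.6 to 92.0 and 40.2 to 117 CPM, lens at 0.175 to 1.36 and 0.208 to 2.16, and skeletal muscle at 2.62 to 4.20 and 2.16 to 4.04. The part of these shifts in the values of Grin1 and Hdac4 was not tested.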

How the data were processed

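Poly(A) RNA libraries of whole retinas were sequenced as paired reads. Per the study's methods, the authors aligned reads to mm10 with STAR, kept uniquely mapped reads and deposited counts of fragments per gene from HTSeq, naming both a RefSeq and an Ensembl annotation. The submitters' processing notes name CASAVA 1.8.2 and edgeR. The authors also deposited FPKM values per mouse, used here only for levels between genes, and 16 further per-sample columns of normalised counts and log ratios, which were not used. The columns of fold changes and p-values from the authors' own comparison were not used either. Whether counting used strand is not given in the sources used here.

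Counts were tested in edgeR 4.0.16 (R 4.3.3) with filterByExpr, TMM scaling and the quasi-likelihood test over 16797 genes, with Benjamini-Hochberg adjustment over all of them. The test was run on simulated counts with known changes beforehand. Groups came from the genotype labels (control against Rbfox2 KD, 4 mice each), and each mouse is 1 replicate. Libraries of the same group were compared in pairs, and each pair differed by more than sampling noise. CPM are counts scaled to the TMM-adjusted library total, single genes were also compared by an exact permutation test, and the number of counts limits precision little at these levels, so the spread between mice sets it. Alternatives used DESeq2 1.42.0, limma 3.58.1 and sva 3.50.0. Cassette exons and gene positions came from GENCODE M21 (GRCm38).

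The 10 genes, the lists of other Rbfox targets, relatives and partners and cell type markers, and the left-out libraries were chosen with earlier results of these data known. All 10 genes are named. Of the listed genes, those with an unadjusted p under 0.05 and the direct paralogs are named.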

Additional observations from a re-analysis of the deposited data

Results flagged for a closer look

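In 26 groups of 4 mice, a single mouse was set against the other 3 by Dixon's criterion, which flags about 1 in 20 groups by chance, and 3 were flagged. Enah in control M898 was at 158 CPM where the other controls were at 170 to 172, a gap of 0.884 of the whole range, and M898 was the lowest control for 9 of the 10 genes. Camta1 in Rbfox2-/- mouse M901 was at 276 CPM where the other Rbfox2-/- mice were at 269 to 270, a gap of 0.926 of the range. Rbfox3 in control M833 was at 34.3 CPM where the other controls were at 41.5 to 42.4, a gap of 0.885 of the range.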

How the results depend on the processing

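No paired analysis was possible because the labels number mice by animal and share no number between the groups. The count of the 10 genes at an adjusted p under 0.05 was 0 under every alternative, with DESeq2 (3.07% of all genes called) and the edgeR likelihood ratio test (0.976%) included. Leaving out 1 mouse at a time, the count at an unadjusted p under 0.05 ran from 0 to 1. The 1 was Mef2d, without M833 (17.6% of all genes) or without M909 (17.8%). The count without overlap ran from 0 to 2, with Mef2d and Picalm without M833 and Camta1 and Kif21a without M896. It was 1 each without M893 and M909, and up to 16.1% of all genes did not overlap in these settings. Of the other Rbfox targets, 1 (Grin1) was under 0.05 without M901 and M902 and 1 with a surrogate variable, against 3, and 1 to 3 when 1 mouse was left out. Of the relatives and partners, 2 were under 0.05 with the likelihood ratio test, 2 with limma-voom, 2 without M901 and M902 and 2 with a surrogate variable, against 4, and 2 to 5 when 1 mouse was left out. The sign of 4 log2 fold changes near 0 turned. Mef2c was at -0.039 without M901 and M902 and at -0.042 with a surrogate variable, and ran from -0.004 to 0.055 without 1 mouse. Camta1 was at -0.005 with a surrogate variable and ran from -0.002 to 0.028, Picalm from -0.006 to 0.021 and Ank3 from -0.053 to 0.020. The cause was not tested. Rbfox2 ran from -1.431 to -1.383 without 1 mouse.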
